A study of Mus musculus with 59 samples.

Results

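Heterozygous loss of Tbk1 in mouse microglia was examined by RNA sequencing of primary cultures, by comparing HET cultures with WT cultures over every treatment. HET cultures carried 1 floxed and 1 wild-type Tbk1 allele together with a Cre recombinase under the Cx3CR1 driver (Tbk1fl/+, Cx3CR1-Cre+), and WT cultures carried 2 floxed alleles and no Cre (Tbk1fl/fl, Cx3CR1-Cre-). Each culture was grown from newborn pups (P0/P1), plated for 16 h and then kept for 24 h in fresh medium (UT), in IL4 at 20 ng/mL, in lipopolysaccharide (LPS) at 100 ng/mL, or in pIC, polyI:C, a mimic of double-stranded RNA. The labels do not give the pIC dose. A culture was counted as 1 genotype with 1 replicate number, and cultures that lacked a treatment were left out, so that 5 HET cultures (20 libraries) were set against 4 WT cultures (16 libraries). These 36 libraries were taken from 59 in all. WT replicate 5 has no untreated library here and entered no mean. The other libraries came from KO cultures (Tbk1fl/fl, Cx3CR1-Cre+), which are used below only to place a HET value. WT cultures lacked Cre, and HET cultures alone carried an unfloxed Tbk1 allele. The loss of 1 Tbk1 copy, that allele, the Cre and the chromosome segment carrying the Cre cannot be told apart in HET against WT.

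TBK1 is a serine/threonine kinase that phosphorylates the transcription factors IRF3 and IRF7 downstream of nucleic acid and LPS sensors and so drives type I interferon production. It also phosphorylates autophagy receptors such as optineurin and p62, and it restrains cell death through RIPK1. Loss-of-function variants that affect 1 copy of the human gene are linked to amyotrophic lateral sclerosis and frontotemporal dementia, so the heterozygous state is the one that resembles the human genotype most closely. Cx3cr1, whose driver was used for Cre, encodes the fractalkine receptor of microglia.

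Values were TPM, a normalized abundance that sums to the same total in each library, so they are shares of each library's RNA and hold no sequencing depth. In the 36 libraries, 12428 to 14581 genes reached 1 TPM, the 50 most abundant genes took 23.4% to 34.9% of TPM and mitochondrial transcripts took 1.27% to 8.46%. No column repeated another. HET 5 stood apart on the first principal component of the culture means, which held 53.4% of the variance (HET 5 at 40.0, the other 8 cultures between -25.6 and 12.4). Results below are given without HET 5 or another culture where that changed them.

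A change from WT passed the test in 3 genes when all treatments were combined. Tbk1 fell, and Rpsa, which encodes a protein of the small ribosomal subunit that also serves as a laminin receptor, rose together with Rpsa-ps10. Rpsa-ps10 is a pseudogene of Rpsa by name, with a biotype of protein coding in the deposited data. For each culture, log2(TPM + 1) was averaged over the 4 treatments, and limma with Benjamini-Hochberg adjustment was applied to 13849 genes with at least 1 TPM in 16 or more of the 36 libraries. The 3 called genes (adjusted p under 0.05) were 0.0217% of the genes tested, 2 of them higher (0.0144%) and 1 lower (0.00722%). At an unadjusted p under 0.05 there were 634 genes (4.58%), 171 higher (1.23%) and 463 lower (3.34%). That split rested on the scaling, since 385 were higher and 427 lower under median-of-ratios scaling and 428 and 432 under quantile normalization. The median gene differed by -0.051 between HET and WT on the log2 scale, against 0.013 under median-of-ratios scaling and 0.0054 under quantile normalization. The median standard error was 0.096, and the unadjusted 95% interval of the median gene reached 0.21 to either side. Adjustment over all genes asked for more than that, since a difference of 0.54 ± 0.11 in Slc25a38 was not called.

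**Figure D1:**
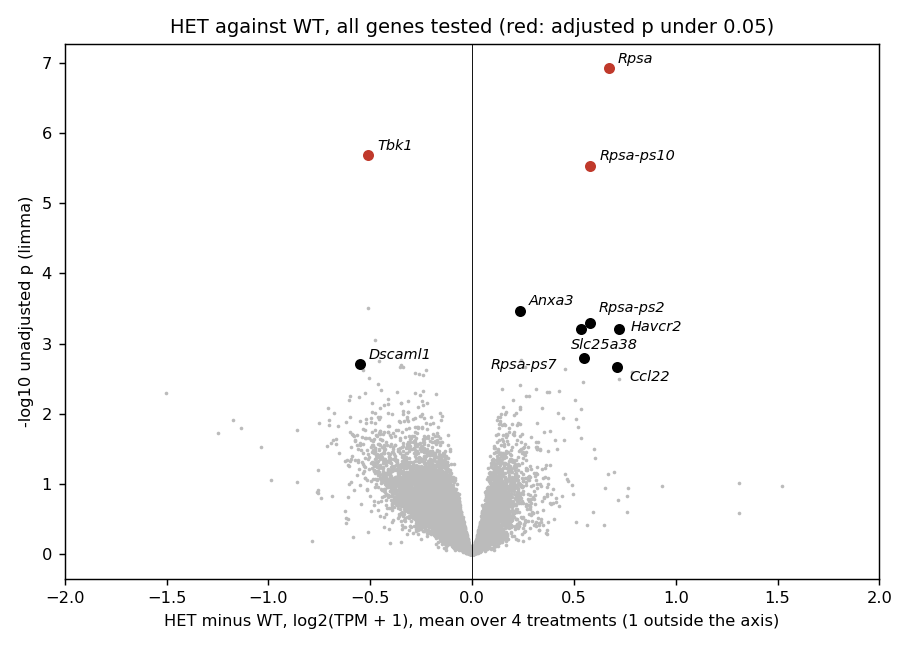
Each point is 1 of 13849 genes, with the HET minus WT difference in log2(TPM + 1), averaged over the 4 treatments, on the horizontal axis and -log10 of the unadjusted limma p on the vertical axis. Tbk1 (-0.51), Rpsa (0.67) and Rpsa-ps10 (0.58), in red, lie above the rest, and the genes in black are named in the text but did not pass adjustment.

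Tbk1 transcripts were lower in HET than in WT in every library of every treatment. Untreated HET cultures 1 to 5 had 35.4, 34.8, 36.9, 35.0 and 32.3 TPM of Tbk1, against 45.3, 53.8, 45.1 and 46.0 TPM in WT cultures 1 to 4. With IL4, Tbk1 averaged 31.0 ± 2.53 TPM in HET cultures and 43.4 ± 1.36 TPM in WT cultures (SD, n = 5 and 4, as for the other values of this paragraph). With LPS it averaged 60.5 ± 4.08 TPM in HET and 88.3 ± 6.99 TPM in WT, and with pIC 53.9 ± 6.04 TPM in HET and 81.4 ± 6.52 TPM in WT. The highest HET library stayed below the lowest WT library each time, at 36.9 against 45.1 TPM untreated, 34.6 against 42.2 TPM with IL4, 66.7 against 81.9 TPM with LPS and 61.1 against 75.3 TPM with pIC.

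Averaged over treatments, the Tbk1 level in HET was 0.703 of that in WT (95% interval 0.647 to 0.763), a log2 difference of -0.51 ± 0.05 (SE, limma adjusted p = 0.0136). An exact permutation test of Tbk1 alone over the 126 ways to assign 5 and 4 cultures gave a two-sided p of 0.00794, the smallest it can give. The difference was -0.43 ± 0.08 untreated, -0.48 ± 0.08 with IL4, -0.54 ± 0.08 with LPS and -0.59 ± 0.09 with pIC, and within a single treatment limma did not call Tbk1 (adjusted p = 0.482, 0.802, 0.193 and 0.229 in that order). KO cultures averaged 19.3 ± 3.24 TPM of Tbk1 over all treatments (n = 5), against 45.1 ± 2.12 TPM in HET (n = 5) and 65.2 ± 4.07 TPM in WT (n = 4). KO differed from HET by -1.17 ± 0.09 (limma adjusted p = 5.34e-05) and from WT by -1.68 ± 0.10 (adjusted p = 9.54e-07), comparisons that share the HET or WT cultures with the one above. The Tbk1 call of limma was lost without HET 1, HET 2, HET 3 or HET 4 (adjusted p = 0.0550, 0.0541, 0.0518 and 0.0523), and without WT 3 or WT 4 (adjusted p = 0.0894 and 0.103). It was also lost when libraries were scaled by median of ratios (-0.44, adjusted p = 0.716), under quantile normalization (-0.46, adjusted p = 0.145) and when KO cultures shared the estimate of spread (adjusted p = 0.350). With the replicate number as a block, limma gave -0.51 (adjusted p = 0.0253), whereas an exact sign-flip test over the 4 HET and WT pairs gave p = 0.125, the smallest that 4 pairs allow.

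Rpsa had the lowest p of all genes tested in HET against WT. It lies on chromosome 9 at chr9:120127766-120132369 (GRCm38, RefSeq annotation), 79.1 kb from the start of Cx3cr1 and next to Slc25a38. Rpsa has processed pseudogenes elsewhere in the genome, and reads that match both can be split between them. A stretch of 100 bases of an Rpsa coding exon is shown beside the same stretch of the pseudogenes that align to it without a gap, to show how few bases separate them. Capitals mark bases that differ from Rpsa, and the sequences are those of the GENCODE M21 transcripts on GRCm38, at chr9:120130118-120130217 (+ strand), chr3:150073191-150073290 (- strand), chr10:128776900-128776999 (- strand) and chr2:28477417-28477516 (+ strand).
Rpsa: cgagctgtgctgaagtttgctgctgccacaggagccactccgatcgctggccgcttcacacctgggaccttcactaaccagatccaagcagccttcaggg
Rpsa-ps10: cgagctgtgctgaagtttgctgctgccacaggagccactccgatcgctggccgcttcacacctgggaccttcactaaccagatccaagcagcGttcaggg
Rpsa-ps2: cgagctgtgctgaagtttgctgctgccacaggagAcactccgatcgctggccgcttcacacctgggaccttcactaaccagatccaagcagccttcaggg
Rpsa-ps9: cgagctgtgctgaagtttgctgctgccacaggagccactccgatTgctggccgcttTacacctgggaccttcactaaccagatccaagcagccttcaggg

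In this stretch Rpsa-ps10 and Rpsa-ps2 each differ from Rpsa at 1 base and Rpsa-ps9 at 2 bases. Over the 885 bases of the Rpsa coding sequence, Rpsa-ps10 matched at 99.3% of aligned bases, Rpsa-ps2 at 99.0%, Rpsa-ps9 at 98.3% and Rpsa-ps5 at 93.8%. Of the 836 windows of 50 bases in the Rpsa coding sequence, 74.6% occur unchanged in Rpsa-ps10, 60.3% in Rpsa-ps2, 33.4% in Rpsa-ps9 and 14.6% in Rpsa-ps5. The values of the pseudogenes are therefore reported as uncertain.

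Every HET library had more Rpsa than every WT library of the same treatment. Untreated HET cultures 1 to 5 had 1916, 1979, 1704, 1795 and 2026 TPM of Rpsa, against 1199, 1220, 1097 and 1059 TPM in WT cultures 1 to 4. With IL4, Rpsa was at 2217, 2340, 2034, 1948 and 2249 TPM in HET and at 1387, 1525, 1320 and 1216 TPM in WT. LPS libraries held 926, 848, 863, 876 and 678 TPM in HET and 638, 510, 508 and 538 TPM in WT, so that the genotypes came closest in HET 5 and WT 1. With pIC, Rpsa was at 1033, 1114, 1151, 1101 and 1025 TPM in HET and at 685, 691, 630 and 677 TPM in WT. In WT replicate 5, which was left out of the means, Rpsa stood at 1397 TPM with IL4, 428 TPM with LPS and 688 TPM with pIC, and the HET 5 libraries were 1.61, 1.58 and 1.49 times as high in that order.

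Pooled over treatments, Rpsa rose by 0.67 ± 0.05 on the log2 scale, to 1.59 times the WT level (95% interval 1.47 to 1.73, limma adjusted p = 0.00166). The log2 difference was 0.72 ± 0.07 untreated (adjusted p = 0.0138), 0.66 ± 0.09 with IL4 (adjusted p = 0.280), 0.61 ± 0.11 with LPS (adjusted p = 0.510) and 0.69 ± 0.06 with pIC (adjusted p = 0.00300). The pooled rise of Rpsa stayed called without any single culture and under each of 23 alternative settings, with differences between 0.65 and 0.74. The calls within a treatment were less stable. In UT, the Rpsa call was lost under median-of-ratios scaling (0.79, limma adjusted p = 0.319), with no filter on low values (adjusted p = 0.140), without HET 1, HET 2 or HET 4 (adjusted p = 0.0776, 0.0559 and 0.0629) and without WT 1, WT 3 or WT 4 (adjusted p = 0.0593, 0.122 and 0.0814). With pIC, it was lost when all groups shared 1 spread (0.68, limma adjusted p = 0.219). With LPS, Rpsa was called under median-of-ratios scaling, with the replicate number as a block and when all groups shared 1 spread (limma adjusted p = 0.0170, 0.0313 and 1.08e-05). With IL4, it was called when all groups shared 1 spread and without WT 2 (limma adjusted p = 2.46e-05 and 0.0488). The other settings tried gave no Rpsa call with LPS or IL4. Rpsa-ps10 rose by 0.58 ± 0.06 (limma adjusted p = 0.0136), with 89.3 to 107 TPM in HET cultures and 61.1 to 69.8 TPM in WT cultures. Its call was lost without HET 1, 2, 3 or 4 (adjusted p = 0.0550, 0.0671, 0.0518 and 0.0838) and without WT 3 or WT 4 (adjusted p = 0.0924 and 0.103). It was also lost without the untreated libraries (adjusted p = 0.0989) or with no filter on low values (adjusted p = 0.0542). Rpsa-ps2, Rpsa-ps7 and Rpsa-ps5 differed by 0.58 ± 0.12, 0.55 ± 0.13 and 0.51 ± 0.15 without passing adjustment (limma adjusted p = 0.762 each), and Rpsa-ps2 was called when the replicate number was a block (0.66, adjusted p = 0.0304). Rpsa-ps9 differed less, by 0.24, and was not called. It was higher in HET in 3 treatments and lower in 1, with differences from -0.15 to 0.38. Rpsa and its named pseudogenes were also summed, a setting added after the data were seen. The sum was 1.59 times as high in HET as in WT (exact permutation p = 0.00794, the smallest that 126 assignments allow). Rpsa alone made up 90.6% to 92.2% of the sum and was singled out by its low p in these same cultures. The p of the sum therefore adds no support of its own. Of the other 27 ribosomal protein genes tested, none was called, and the list as a whole had a median difference of -0.038, against -0.051 over all genes tested, with the sign of the list's median turning under median-of-ratios scaling (0.033).

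Rpsa and Tbk1 were the only genes of 13849 (0.0144%) in which HET and WT libraries did not overlap, in 1 direction, in each of the 4 treatments. Averages over treatments did not overlap between HET and WT cultures in 171 genes (1.23%), 85 higher and 86 lower.

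**Figure D2:**
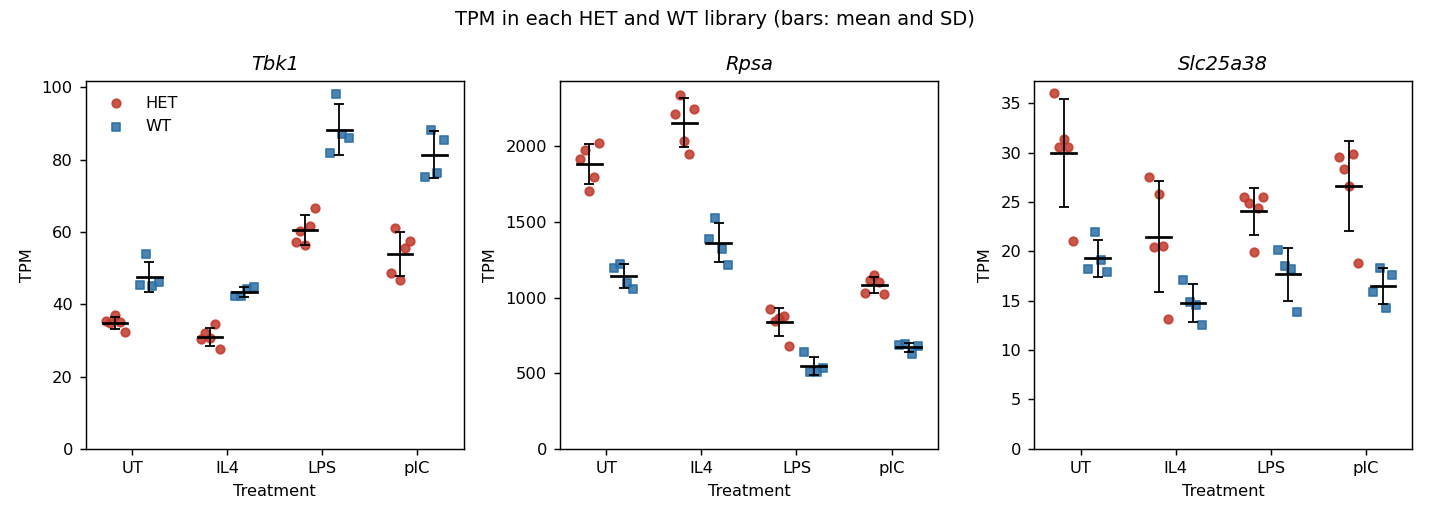
TPM of Tbk1, Rpsa and Slc25a38 in each library (points) by treatment, for 5 HET cultures (red circles) left of 4 WT cultures (blue squares), with the mean and SD as bars. HET libraries lie below WT libraries for Tbk1 and above them for Rpsa in all 4 treatments, whereas for Slc25a38 single HET libraries reach into the WT range in UT (21.1 TPM in HET 5, against 21.9 TPM in WT 2), IL4 and LPS.

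KO cultures, which carry the same Cre as HET cultures, overlapped HET cultures in Rpsa. Averaged over treatments, KO cultures 1 to 5 had 1512, 1734, 1462, 1531 and 1662 TPM of Rpsa, HET cultures had 1523, 1570, 1438, 1430 and 1495 TPM, and WT cultures had 977, 987, 889 and 872 TPM. KO exceeded WT by 0.80 ± 0.06 (limma adjusted p = 2.61e-05), and KO exceeded HET by 0.12 ± 0.06, a fold between 0.998 and 1.19 (95% interval), which did not pass (adjusted p = 0.409). KO and HET overlapped for Rpsa, and neither overlapped WT.

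Slc25a38, which encodes a mitochondrial carrier that brings glycine into the organelle for haem synthesis, is the nearest gene tested to Rpsa. It lies at chr9:120110377-120126093 and its start is 61.7 kb from that of Cx3cr1. Averaged over treatments, Slc25a38 was at 29.7, 26.1, 25.9, 26.3 and 19.6 TPM in HET cultures 1 to 5 and at 17.8, 18.4, 16.5 and 15.5 TPM in WT cultures 1 to 4, so that the genotypes did not overlap. The difference of 0.54 ± 0.11 did not pass (limma adjusted p = 0.762). It passed without HET 5 (0.63, limma adjusted p = 0.0285) and with the replicate number as a block (0.63, adjusted p = 0.0484). It also passed in a fit to single libraries that kept the culture as a random block and added WT replicate 5 (0.56, adjusted p = 0.0208). KO cultures had 21.8 to 24.8 TPM of Slc25a38 and exceeded WT by 0.43 ± 0.10 (limma adjusted p = 0.0240), and KO minus HET was -0.10 ± 0.09 (adjusted p = 0.802). 

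Cx3cr1 itself was not called, at 273 to 372 TPM in HET cultures and 281 to 340 TPM in WT cultures averaged over treatments (0.16 ± 0.17, limma adjusted p = 0.778). Within 5 Mb of Cx3cr1, 62 other genes were tested and Rpsa was the only one called (pooled background 0.0217%), while 4 were higher and 2 lower without overlap of the culture means (0.614% and 0.621% over all genes). Besides Rpsa and Slc25a38, those without overlap were 1110059G10Rik (0.31 ± 0.09), Tgfbr2, a receptor for TGF-beta (0.13 ± 0.05), Higd1a, a mitochondrial protein induced by low oxygen (-0.28 ± 0.07), and Scp2-ps2 (-0.12 ± 0.04), all with a limma adjusted p of 0.762. On the other side of Cx3cr1, Csrnp1 (-0.11 ± 0.08), the nearest gene tested there, and Wdr48 (-0.04 ± 0.05), farther out, were not called either. Myrip (-0.26 ± 0.19), which lies beyond Rpsa, was not called. Within 5 Mb of Tbk1 on chromosome 10, none of 35 other genes tested was called by limma, none had culture means free of overlap, and 1 was lower at an unadjusted p under 0.05, beside 3.34% of all genes.

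**Figure D3:**
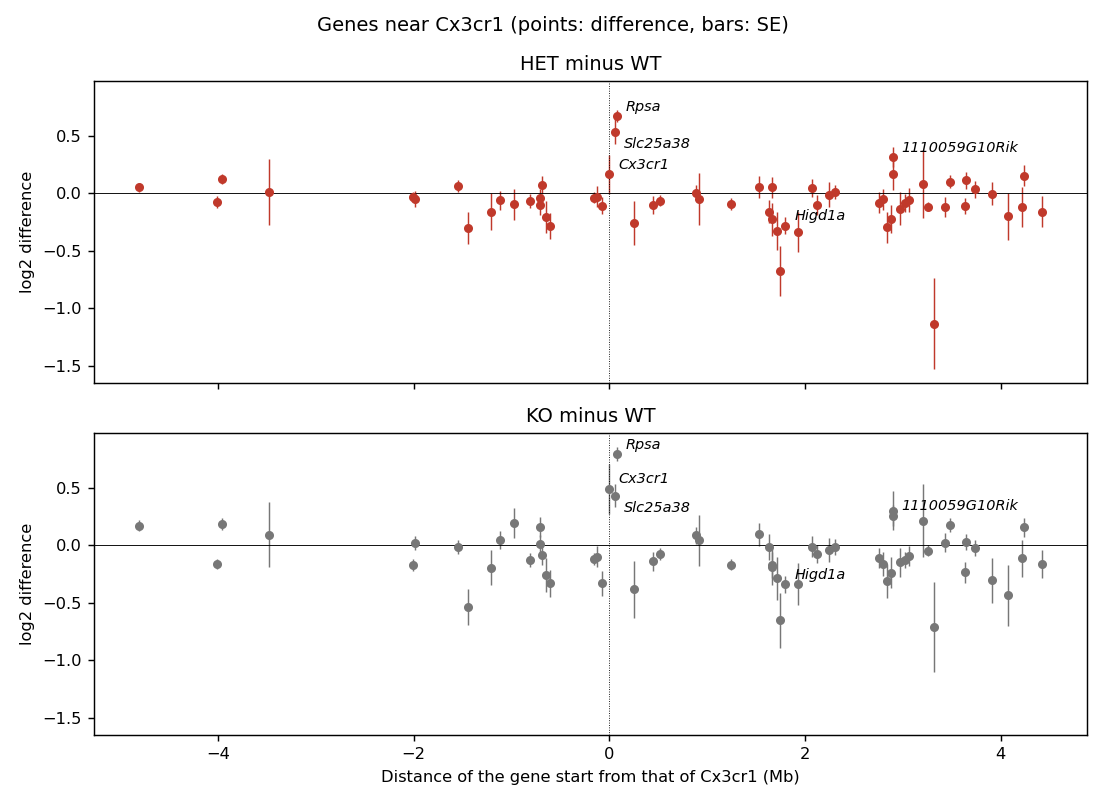
Log2 differences (points) with their SE (bars) of genes tested within 5 Mb of Cx3cr1, for HET minus WT above and KO minus WT below, against the distance in Mb between the start of each gene and that of Cx3cr1. Rpsa (0.67 in HET minus WT, 0.80 in KO minus WT) and Slc25a38 (0.54 and 0.43) are the nearest genes tested on the right of Cx3cr1 and stand above their neighbours in both panels, which share the WT cultures.

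Markers of microglia and of other cell types were summed in each culture, and fewer cells of a type and less RNA per cell cannot be told apart in these bulk libraries. The 10 microglia markers summed to 4018 to 4381 TPM in HET cultures and 3750 to 3948 TPM in WT cultures, with no overlap, the largest sum of the cell types listed in both genotypes. Oligodendrocyte lineage markers (14 genes) summed to 654 to 1279 TPM in HET and 814 to 1996 TPM in WT. Neuronal markers (12 genes) summed to 86.9 to 196 TPM in HET and 118 to 215 TPM in WT, and astrocyte markers (11 genes) to 143 to 264 TPM in HET and 186 to 321 TPM in WT. Border macrophage and monocyte markers (10 genes) summed to 622 to 833 TPM in HET and 573 to 657 TPM in WT. Markers of endothelial cells, pericytes and fibroblasts summed to 61.0 to 83.1 TPM in HET and 57.4 to 63.5 TPM in WT, and those of lymphocytes and granulocytes to 11.9 to 26.5 TPM in HET and 18.8 to 27.1 TPM in WT, with 8 of the 9 lymphocyte and granulocyte markers under 1 TPM in every HET and WT culture. All 12 oligodendrocyte lineage genes tested were lower in HET, with a median of -0.51 against -0.051 over all genes. An unadjusted p under 0.05 was found in 4 of them, beside 3.34% of all genes that were lower at that threshold, but none passed adjustment. Cnp, a myelin enzyme, was at 81.0 to 112 TPM in HET cultures and 95.2 to 169 TPM in WT cultures (-0.46 ± 0.15, limma adjusted p = 0.762). Bcas1, a marker of early myelinating oligodendrocytes, was at 109 to 154 TPM in HET and 114 to 263 TPM in WT (-0.67 ± 0.25, adjusted p = 0.762). WT 2 was the WT culture with the least of these transcripts. Without WT 2, limma called 8 genes, and beside Tbk1, Rpsa and Rpsa-ps10 these were Bcas1 (-0.98), Enpp6 (-1.07), Fyn (-0.58), Gjc3 (-0.94) and Pde9a (-0.74), of which Bcas1, Enpp6 and Gjc3 are expressed by oligodendrocyte lineage cells.

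A ribosomal RNA gene (CT010467.1, annotated as rRNA in GENCODE M21) averaged 0.264% to 1.74% of TPM in HET cultures and 1.76% to 2.65% in WT cultures (-1.50 ± 0.42, limma adjusted p = 0.762). These averages nearly met in HET 1 and WT 1. Single libraries overlapped, with 0.392% in WT 3 with IL4 and 2.46% in HET 1 with pIC. In WT replicate 5, outside these averages, the share was 0.325% with IL4, 0.910% with LPS and 0.196% with pIC. All 3 values lay below every WT average. Cultures also differed in sex makeup. Xist, which silences 1 X chromosome in female cells, was at or under 0.163 TPM in HET 3, HET 5 and WT 3 and between 28.0 and 92.3 TPM in the other 6 cultures. The Y-linked Kdm5d was at 0.0318 TPM in HET 1 and between 6.90 and 20.7 TPM in the others. The part of these differences in the results on genes and lists was not tested.

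**Figure D4:**
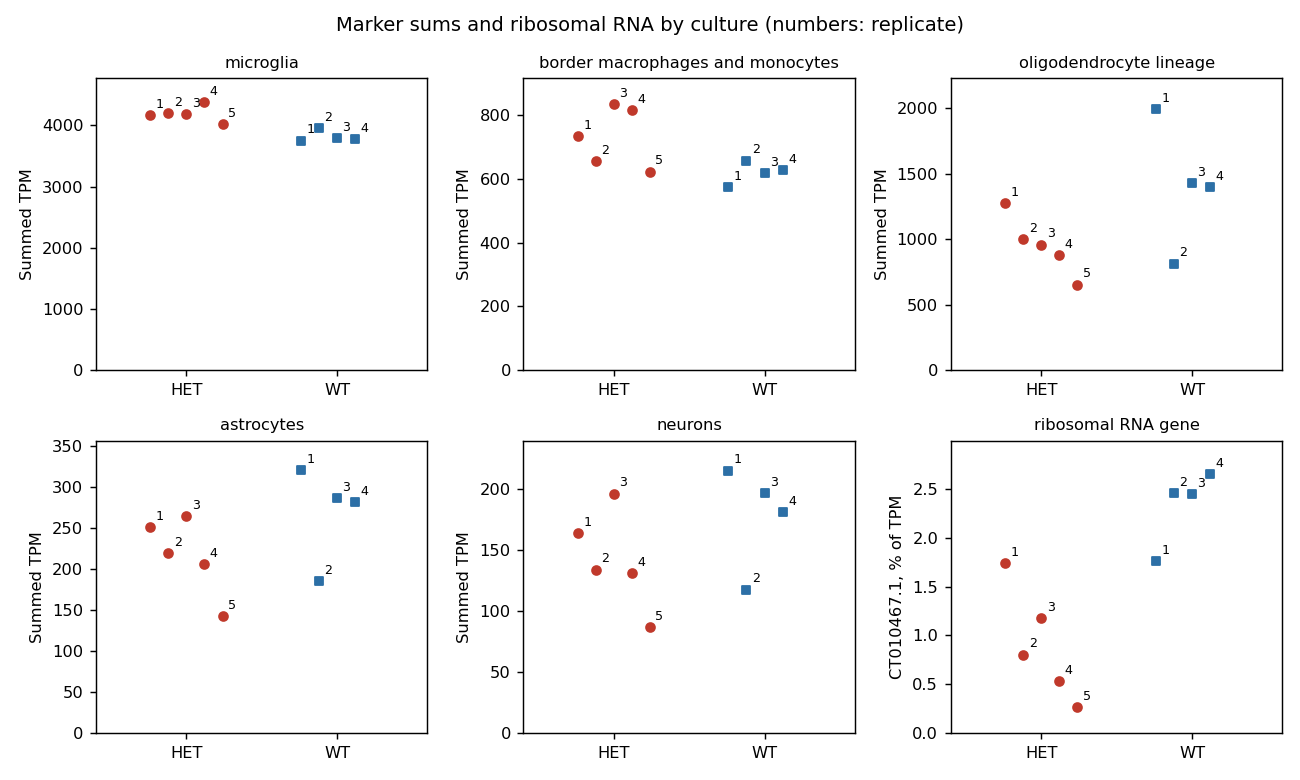
Summed TPM of the marker genes of 5 cell types, and the share of TPM taken by a ribosomal RNA gene, in each culture averaged over the 4 treatments, with 5 HET cultures on the left and 4 WT cultures on the right, numbered by replicate. Microglia sums are higher in every HET culture (4018 to 4381 TPM) than in every WT culture (3750 to 3948 TPM), whereas the sums of the other types overlap. The averaged rRNA share is lower in each HET culture shown than in each WT culture shown, with HET 1 (1.74%) close to WT 1 (1.76%).

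Genes of the TBK1 pathway other than Tbk1 gave no call. Of 20 kinases, adaptors and substrates tested, Tbk1 was the only one called, and the list had a median of 0.017, against -0.051 over all genes. The members with the lowest p after Tbk1 were Tlr4, the LPS receptor, at 31.2 to 41.6 TPM in HET cultures and 28.5 to 32.9 TPM in WT cultures (0.22 ± 0.08, limma adjusted p = 0.762), and Irf7, a transcription factor that TBK1 phosphorylates. Irf7 had geometric means over treatments of 109 to 120 TPM in HET and 113 to 154 TPM in WT (-0.18 ± 0.08, adjusted p = 0.762). In KO cultures the geometric means of Irf7 were 36.6 to 81.2 TPM (KO minus HET -1.12 ± 0.17, limma adjusted p = 0.00474).

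Of 45 interferon-stimulated genes tested, none was called in HET against WT, and the median difference was -0.082. At an unadjusted p under 0.05, 7 of the 45 were lower and 0 higher, beside 3.34% and 1.23% of all genes. That count rested on the scaling. Under median-of-ratios scaling 0 were lower (median -0.021), beside 427 of all genes. Under quantile normalization 2 were lower (median -0.042), beside 432 of all genes. The 7 genes included Rtp4, with geometric means of 49.4 to 57.2 TPM in HET cultures and 52.1 to 76.8 TPM in WT cultures (-0.29 ± 0.10). They also included Ifit3, which binds viral RNA complexes (-0.24 ± 0.09), and the antiviral GTPase Mx2 (-0.22 ± 0.08), all with a limma adjusted p of 0.762. The list's median was -0.17 in UT, -0.031 in IL4, -0.14 in LPS and 0.015 in pIC, the stimulus under which Irf7 was highest (2380 ± 116 TPM in HET, n = 5, and 2493 ± 169 TPM in WT, n = 4). In KO against WT, 39 of the same 45 genes fell (399 genes lower of 13849, 2.88%) with a median of -0.67, and in KO against HET 33 fell (227 genes lower, 1.64%) with a median of -0.54. Rsad2, which encodes the antiviral enzyme viperin, was called lower when the replicate number was a block (-0.47, limma adjusted p = 0.0413) and not without it (-0.29, adjusted p = 0.764). MHC class I genes likewise had no call among 20 tested in HET against WT (median -0.035, 0.024 under median-of-ratios scaling), against 9 lower in KO against WT (beside 2.88% of all genes) with a median of -0.34.

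Lists of microglial state had positive medians in HET without a call. Of 31 genes associated with disease and age in microglia, 27 had a positive difference (median 0.12), beside 31.8% of all genes tested. At an unadjusted p under 0.05, 4 were higher and 0 lower, beside 1.23% and 3.34% of all genes. Itgax, an integrin subunit, had geometric means of 16.2 to 23.8 TPM in HET and 11.3 to 19.6 TPM in WT, and differed by 0.51 ± 0.17 on the log2 scale (limma adjusted p = 0.762). Lpl, a lipase of lipid uptake, differed by 0.35 ± 0.13, and Cybb, the catalytic subunit of the phagocyte oxidase, by 0.17 ± 0.06 (adjusted p = 0.762 each). The corresponding KO minus WT differences were 1.72 for Itgax, 1.39 for Lpl and 0.28 for Cybb (limma adjusted p = 0.00160, 0.000476 and 0.0391), and 6 of the 31 genes rose in KO against WT (219 genes higher, 1.58%). Of 20 homeostatic microglia genes, 18 had a positive difference in HET (median 0.10), beside the same 31.8%, and 0 were called. Medians of both lists stayed positive under the other scalings, at 0.10 to 0.19 for the disease- and age-associated genes. The share of 31.8% belongs to the main scaling, in which the median of all genes was -0.051. That median was positive under the other scalings, at 0.013 with median of ratios and 0.0054 with quantile normalization. The contrast with all genes is therefore smaller there. The microglia marker sum was higher in each HET culture than in each WT culture, as given above, and its part in these lists was not tested.

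Lysosomal genes had their highest median in untreated cultures. In UT, 16 of 34 lysosome genes had an unadjusted p under 0.05 and were higher in HET, beside 1.54% of all genes, with a median of 0.17 against -0.048 over all genes, but none passed adjustment. Hexa, a subunit of a lysosomal hexosaminidase, was at 1013 ± 89.2 TPM in untreated HET cultures and 847 ± 37.4 TPM in untreated WT cultures (SD, n = 5 and 4, as for the next values). The beta-glucuronidase Gusb was at 574 ± 38.5 TPM in HET and 490 ± 32.0 TPM in WT. The count of 16 (beside 213 over all genes) was 7 under median-of-ratios scaling (415), 8 without HET 4 (132) and 10 without HET 5 (220). It was 6 without WT 1 (189) and 5 without WT 3 (105). The count was 17 without WT 2 (470) and 17 with the replicate number as a block (434). These settings were added after the data were seen, and the list's median stayed between 0.13 and 0.25 in them. The list's median was -0.00059 with LPS, 0.065 with IL4 and 0.076 with pIC. Microglia markers summed to 6194 to 6941 TPM in untreated HET cultures and 5588 to 6250 TPM in untreated WT cultures, and their part in the lysosomal values was not tested.

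**Figure D5:**
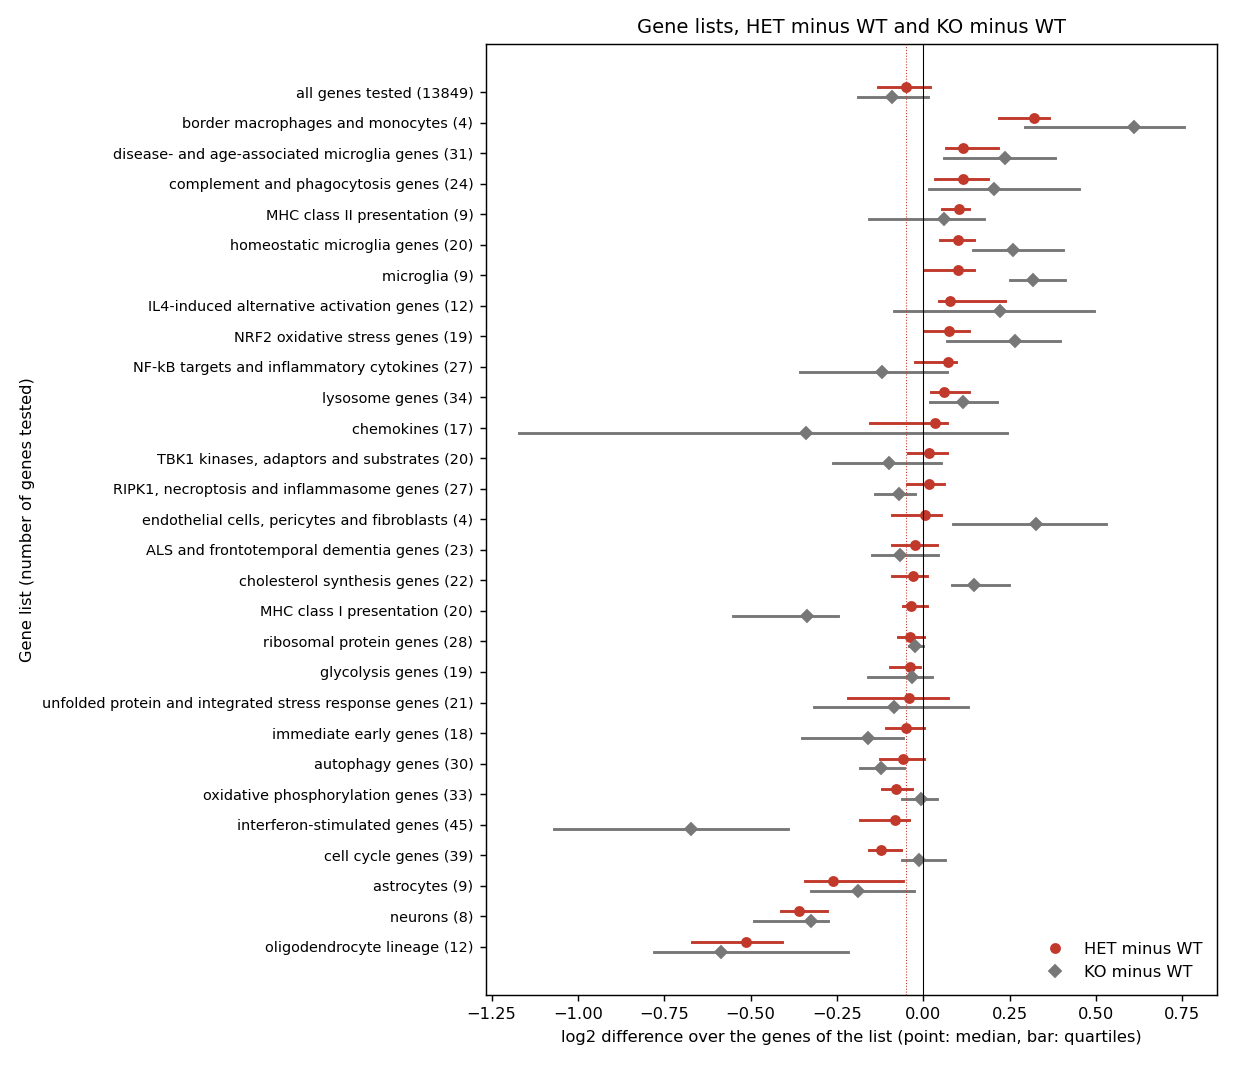
Median (point) and quartiles (bar) of the log2 difference over the tested genes of each list, for HET minus WT in red and KO minus WT in grey, which share the WT cultures. The interferon-stimulated genes have a median of -0.082 in HET minus WT and -0.67 in KO minus WT, while the disease- and age-associated microglia genes have 0.12 and 0.24. The dotted line marks the median of all genes in HET minus WT (-0.051).

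Inflammatory and stress lists held no called gene in HET. The 27 NF-kB targets and inflammatory cytokines had a median of 0.071, with 0 genes at an unadjusted p under 0.05. They included Il12b (0.26 ± 0.13) and Il6 (0.32 ± 0.18), both with a limma adjusted p of 0.762. KO minus WT was -0.70 for Il12b (adjusted p = 0.00746) and -0.31 for Il6 (adjusted p = 0.333). Of 24 complement and phagocytosis genes, 2 were higher and 1 lower at an unadjusted p under 0.05, beside 1.23% and 3.34% of all genes, with a median of 0.11. C3, the central complement component, had a difference of 0.33 ± 0.13, and the Fc receptor Fcgr4 had -0.23 ± 0.06 (limma adjusted p = 0.762 each). Of 21 genes induced by unfolded proteins or by the integrated stress response, 2 were higher and 6 lower at an unadjusted p under 0.05, beside 1.23% and 3.34% of all genes, and 2 were higher and 5 lower under median-of-ratios scaling. The higher ones, named after their values were seen, were the chaperone Calr (0.22 ± 0.07) and Sdf2l1 (0.17 ± 0.07), both with a limma adjusted p of 0.762. Among the lower ones were Trib3 (-0.39 ± 0.12), a pseudokinase induced by ATF4, and the serine synthesis enzymes Phgdh (-0.37 ± 0.10) and Psat1 (-0.26 ± 0.08), all with a limma adjusted p of 0.762. The list's median was -0.040 and turned positive under median-of-ratios scaling (0.028). Among 30 autophagy genes, whose receptors TBK1 phosphorylates, 2 were lower at an unadjusted p under 0.05, beside 3.34% of all genes (median -0.060, 0.0087 under median-of-ratios scaling). They were Bnip3, a receptor for mitophagy (-0.28 ± 0.11), and Atg13 of the initiation complex (-0.15 ± 0.06). Under median-of-ratios scaling, and also under quantile normalization, 0 were lower and 1 was higher at that threshold. The 27 genes of RIPK1 signalling, necroptosis and inflammasomes had 0 genes at that threshold and a median of 0.017. The 39 cell cycle genes had a median of -0.12, which was -0.064 under median-of-ratios scaling, with Mcm7, a subunit of the replicative helicase, at -0.28 ± 0.11 (limma adjusted p = 0.762). Of 23 genes linked to amyotrophic lateral sclerosis and frontotemporal dementia, Tbk1 alone was called, and Mapt, which encodes tau and is abundant in neurons and oligodendrocytes, had -0.48 ± 0.20 (adjusted p = 0.762). Chemokines (median 0.033), MHC class II genes (0.10) and genes induced by IL4 (0.078, with 3 of 12 higher at an unadjusted p under 0.05, beside 1.23% of all genes) had no call. Cholesterol synthesis, glycolysis, oxidative phosphorylation, NRF2 and immediate early genes had no call, with medians between -0.079 and 0.076.

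A further set of genes did not pass adjustment, but their culture means on the log2 scale did not overlap between HET and WT (1.23% of all genes). By the rule that fixed the names, Havcr2, which encodes the checkpoint receptor TIM-3 of microglia, had the highest difference of these. It was at 39.5, 45.2, 51.4, 45.6 and 46.6 TPM in HET cultures 1 to 5 and 24.8, 29.5, 30.6 and 34.4 TPM in WT cultures 1 to 4 (0.72 ± 0.15, limma adjusted p = 0.762). In WT replicate 5, outside these means, Havcr2 was higher than in HET 5. Its Havcr2 level was 73.9 TPM with IL4, 30.6 TPM with LPS and 15.7 TPM with pIC, and HET 5 stood at 0.974, 0.902 and 0.856 times those values. Others that were higher were Ptpn22, a phosphatase that restrains immune receptor signalling (0.37 ± 0.10, at 5.80 TPM in HET and 3.97 TPM in WT), Arap3 (0.26 ± 0.08), the anti-apoptotic Bcl2a1d (0.26 ± 0.06), the lysosomal peptidase Dpp7 (0.24 ± 0.06), Gusb (0.24 ± 0.07) and the annexin Anxa3 (0.24 ± 0.04). Those that were lower were the neuronal adhesion molecule Dscaml1 (-0.55 ± 0.13), Cep170b (-0.37 ± 0.13), Phgdh, Ypel2 (-0.36 ± 0.09), the dUTPase Dut (-0.35 ± 0.09), the glucose-6-phosphate transporter Slc37a4 (-0.34 ± 0.08), Higd1a and the calpain Capn5 (-0.28 ± 0.09). All had a limma adjusted p of 0.762.

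Within single treatments, calls were as few. Limma called Rpsa and Rpsa-ps10 in UT (0.0144%), Rpsa with pIC (0.00722%), and 0 genes with LPS or IL4 (874 and 609 genes at an unadjusted p under 0.05, 6.31% and 4.4%). The response to LPS, taken as LPS minus UT in the same culture, did not differ between HET and WT in any gene after adjustment (825 genes at an unadjusted p under 0.05, 5.96%), and neither did the response to IL4 (763 genes, 5.51%). For Tbk1 the HET minus WT difference in the LPS response was -0.10 ± 0.10, a factor of 0.794 to 1.09 (95% interval, limma adjusted p = 0.891). With the replicate number as a block, 13 genes were called with LPS. Beside Tbk1 (-0.57) and Rpsa (0.68), the chemokines Ccl22 (2.19) and Pf4 (1.44), the activin subunit Inhba (1.61) and Vnn3 (0.96) were higher. Also higher were the costimulatory ligand Icosl (0.88), Bcl2a1d (0.66), Abracl (0.62) and Bcl2a1a (0.50), and the antiviral GTPase Mx1 (-0.74), Slamf9 (-0.59) and Higd1a (-0.58) were lower. Pf4 is also one of the border macrophage and monocyte markers, whose sum with LPS was 848, 826, 1581, 1289 and 663 TPM in HET cultures 1 to 5 and 522, 732, 716 and 802 TPM in WT cultures 1 to 4. That sum was higher in HET in each of the 4 pairs, while HET 5 fell within the WT range, and its part in these calls was not tested. Ccl22 stood at 22.4 ± 16.4 TPM in HET cultures with LPS (12.9 to 51.4 TPM, n = 5) and 4.04 ± 2.29 TPM in WT cultures (1.74 to 7.13 TPM, n = 4), without overlap. Without the block its difference of 2.12 ± 0.41 did not pass (limma adjusted p = 0.698). With pIC, Ccl22 was not higher in HET, at 44.0 ± 14.6 TPM against 56.1 ± 27.7 TPM in WT.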

How the data were processed

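RNA of primary mouse microglia was sequenced after preparation of libraries from 300 ng of RNA, per the labels' protocols. The deposited values are TPM per gene, made, per the submitters' processing notes, with DRAGEN, Trimmomatic, Picard and FastQC on build mm10, with no versions listed. The annotation, the strand setting and the treatment of reads that match several genes are not given in the sources used here. Depth cannot be recovered from TPM, so precision comes from the spread between cultures, which the labels call independent. The tables for pIC and for the other treatments were deposited separately, and differences were taken within treatments. Groups were read from sample titles.

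The files hold 32070 genes. Culture means of log2(TPM + 1), a pseudocount of 1, were fitted with limma 3.58.1 (trend) in R 4.3.3, on genes with at least 1 TPM in 16 of 36 libraries, with Benjamini-Hochberg adjustment at 0.05, checked on simulated data. Named genes were Tbk1 and Cx3cr1, all called genes, the 8 highest and 8 lowest of at least 5 TPM in the higher genotype that had an unadjusted p under 0.05 and no overlap, up to 3 members per list by p, called genes within treatments, and genes near Tbk1 or Cx3cr1. Those members, lists and rules were chosen with earlier results of these data known. Deviations of same-numbered HET and WT cultures from their genotype means correlated across genes by 0.551, 0.116, 0.250 and 0.283, all above 0.1, so replicate numbers were treated as pairs in an alternative fit. Some differently numbered cultures also passed 0.1, namely HET 5 with WT 2 (0.508), HET 3 with WT 1 (0.235) and HET 3 with WT 4 (0.154). The other differently numbered ones lay between -0.491 and 0.0449. These correlations therefore do not settle whether the numbers are pairs. Gene positions came from RefSeq (GRCm38.p6), matched by gene identifier. Sequences came from GENCODE M21 and were aligned with Biopython. Some genes that the rule would name are not reported here.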

Additional observations from a re-analysis of the deposited data

Results flagged for a closer look

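Among 200 sets of culture means (one gene in one genotype), 15 held a culture that stood apart by Dixon's ratio at the 95% level, where chance gives about 1 in 20. No explanation of these was tested. In HET, the culture that stood apart was HET 1 for Erap1 (35.5 TPM, geometric mean over treatments, as for all values here), for Eif2s3y (0.379 TPM) and for Kdm5d (0.0313 TPM), the last 2 being Y-linked. It was HET 3 for Ypel2 (5.34 TPM), and HET 5 for Ulk2 (25.9 TPM), Ndufs3 (78.0 TPM) and Rpsa-ps9 (1.26 TPM). In WT it was WT 2 for Cybb (778 TPM), S100b (28.5 TPM), Dcx (13.5 TPM) and Tubb3 (22.7 TPM), the last 3 being markers of astrocytes and neurons. It was WT 1 for Gsr (70.6 TPM) and Nefm (5.95 TPM), WT 3 for Rpsa-ps5 (1.56 TPM) and WT 4 for C3 (65.4 TPM).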

How the results depend on the processing

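For HET against WT pooled, 6 genes were called with no filter on low values, 6 with the replicate number as a block, and 1 to 8 when each culture was left out. Under that block, the exact test of Tbk1 gave -0.51 (p = 0.125), and leaving out each culture gave -0.54 to -0.47. Within treatments, median-of-ratios scaling gave 1 call in UT and 2 with LPS, no filter gave 2 with LPS and 5 with pIC, the block gave 13 with LPS, and sharing 1 spread over all groups gave 2 with LPS, 2 with IL4 and 0 with pIC. Leaving out cultures gave 0 to 5 (UT), 0 to 2 (LPS), 0 to 5 (IL4) and 1 to 2 (pIC). With no filter the LPS response had 2 calls and the IL4 response 1, and leaving out cultures gave 0 to 1 and 0 to 0. KO against WT had 400 calls under median-of-ratios scaling and 250 to 770 with a culture left out, and KO against HET had 197 and 177 to 370, and 689 with the block. Xist turned to 0.0041 under the block, and with a culture left out it lay between -2.16 and 0.055, Eif2s3y between -0.89 and 0.43 and Kdm5d between -0.64 and 0.45, each turning positive. The cause was not tested. With TPM alone, depth is unknown, and 9 cultures limit precision.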
